A study of Homo sapiens with 3 samples.

Results

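The genes described here copy and repair DNA. They comprise 37 listed genes of origin licensing, the replicative helicase, primase and polymerases, the clamp loader, single-strand binding, Okazaki fragment maturation, S-phase entry, chromatin assembly and repair. They were chosen by name: every probe set whose single annotated gene symbol was on the list was taken, which gave 57 of 22283 probe sets and 36 of 11963 genes. BRCA2 was not analysed here. Of the 36 genes, 34 had a signal above the floor of 28.3 units, the median of all scaled signals, on at least 1 array, and 33 were above it on all 3 arrays. The exception among the 34 was POLA1, just below the floor on the nm23-H1 array. CCNE2 and BRCA1 were below the floor on every array by the probe sets used. Over the whole array, 8000 genes were measured in this sense.

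The cells were CAL 27, a human line from a poorly differentiated squamous cell carcinoma of the tongue, grown in DMEM with fetal bovine serum. They were stably transfected with pEGFPC1 carrying nm23-H1, with pEGFPC1 carrying nm23-H2, or with the empty vector, which adds a GFP tag in the labels' account of the nm23-H1 protein and GFP alone in the vector cells. The vector cells were 1 clone and the nm23-H1 cells are called clones, while the labels of the nm23-H2 cells mention none. Each construct was measured on 1 Affymetrix array, so no group had a replicate, no test across samples was possible, and construct, clone and hybridisation cannot be told apart. Values are MAS5 signals multiplied by 1 factor per array, in scaled signal units, and differences are log2 of the ratio of 2 arrays after values below the floor were raised to it. Error could be judged only from genes with several probe sets, by the gap between the log2 differences of the 2 brightest above the floor on both arrays. The SD of that gap was divided by the square root of 2, to give the error of 1 probe set. This probe error was 0.32 where nm23-H1 was set against vector, 0.35 where nm23-H2 was, and 0.39 between the nm23 arrays. It does not cover cultures, clones or hybridisations.

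NME1 and the cell type were checked first. NME2, the gene of the nm23-H2 construct, was not analysed here, so nothing below checks that construct. NME1, which encodes Nm23-H1, had 2379 units with nm23-H1, 1132 with nm23-H2 and 1519 with vector, but whether the probes read the construct is unknown. All 9 squamous epithelial markers analysed exceeded the floor on 1 or more arrays, with KRT5, a basal keratin, at 8543, 11699 and 9288 units on the nm23-H1, nm23-H2 and vector arrays. Of 9 markers of leukocytes, endothelium, fibroblasts, muscle, liver and glia, 8 were below the floor on all arrays, and PECAM1 reached 43.6, 21.9 and 35.3 units.

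DNA replication begins when the origin recognition complex and CDC6 load a ring of MCM2 to MCM7 onto DNA, a step that geminin (GMNN) restrains once S phase has begun. CDC45 and the GINS complex then turn the ring into an active helicase, primase and polymerase alpha lay down primers, replication factor C (RFC1 to RFC5) loads the PCNA clamp, and polymerases delta and epsilon extend the strands. Many of these genes are transcribed at the entry to S phase by E2F factors, and their RNA is therefore tied to how many cells of a culture are cycling. In RNA from whole cultures, fewer cells in S phase and less RNA per cell cannot be told apart.

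The promoters show what many of these genes have in common outside the arrays. The RefSeq promoter table of build GRCh38.p14, with 250 bases before and 50 after each start, held 32 of the 37 genes. Each promoter was searched on both strands for 4 words of the E2F type, TTTCCCGC, TTTGGCGC, TTTCGCGC and TTTGCCGC, which can overlap each other. At least 1 word was found for 15 of the 32 genes (46.9%), against 3.99% of all 27305 genes in the table and 6.58% of the 6593 measured genes with a promoter. The 15 were CDC6, GMNN, MCM2, MCM3, MCM6, MCM7, POLA1, POLA2, POLE, POLE2, RFC3, LIG1, E2F1, MSH6 and UNG. A match is a run of letters and not a shown binding site. The stretches below are shown because POLE2, GMNN and MCM6 were among the genes lower with nm23-H2, while POLE, E2F1, RFC3 and POLA2 carry such words and lay within 0.38 of vector with nm23-H2. Capitals mark the words, which read as their reverse complement where the word lies on the other strand, and positions are counted from the start site of the gene.
POLE2, chr14:49688212-49688274, minus strand, -60 to 3: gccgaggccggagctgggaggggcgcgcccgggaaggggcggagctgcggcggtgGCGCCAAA
MCM6, chr2:135876514-135876603, minus strand, -160 to -71: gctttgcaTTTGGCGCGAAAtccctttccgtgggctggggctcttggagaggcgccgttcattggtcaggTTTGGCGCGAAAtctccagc
GMNN, chr6:24775303-24775362, plus strand, -110 to -51: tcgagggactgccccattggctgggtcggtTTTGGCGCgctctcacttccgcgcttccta
POLE, chr12:132687343-132687402, minus strand, -60 to -1: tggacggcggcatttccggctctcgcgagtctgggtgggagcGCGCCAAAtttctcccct
E2F1, chr20:33686386-33686445, minus strand, -60 to -1: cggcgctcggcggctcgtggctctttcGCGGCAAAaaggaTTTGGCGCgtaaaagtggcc
RFC3, chr13:33818069-33818128, plus strand, -80 to -21: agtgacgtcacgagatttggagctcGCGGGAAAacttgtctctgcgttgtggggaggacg
POLA2, chr11:65261882-65261941, plus strand, -80 to -21: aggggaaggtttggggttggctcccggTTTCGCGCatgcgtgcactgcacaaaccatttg
In MCM6 each capital run holds 2 words that overlap, 1 on each strand. The GMNN stretch belongs to 1 of 2 start sites in the table, and the other had no word.

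With nm23-H1 against vector, the genes as a group lay at the level of the vector array. Their median difference was -0.01 (log2), against 0.00 for all measured genes, with 17 of 34 above 0 (49.5% of all genes) and 17 below (47.8%). At least 2-fold, 1 gene was higher (CDC45) and 1 lower (MCM5), against 2.16% and 1.71% of all genes. At least 1.5-fold, 3 were higher, namely CDC45, PRIM2 and POLD1 (8.56% of all genes), and 2 lower, namely MCM5 and CHAF1A (7.53%). These shares are close to those of all genes.

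With nm23-H2 against vector, most of the genes were modestly lower after scaling. The median difference was -0.22, against -0.06 for all measured genes, and 27 of 34 were below 0 (79.4%), against 54.5% of all genes, with 7 above 0 (40% of all genes). Among the brighter genes, with an array at or above the 70th percentile, the 30 members had a median of -0.24 and the 5034 genes of all kinds -0.05, with 53.3% of the 5034 below 0. The list's median turned to 0.11 with the values as deposited, where that of all genes was 0.17, and 14 of 34 were then below 0, against 30.9% of all genes, so the direction against vector depends on the scaling. Relative to the median of all genes, 25 of 34 were lower, and this was 23 with the values as deposited, 25 with a common median and 25 with quantile normalization. The values as deposited and the common median change only the factor of each array. That shifts all genes alike apart from the floor, so those counts could hardly change and are not a check. At least 2-fold, 1 gene was lower (POLE2) and 1 higher (CDC45), against 3.62% and 3.54% of all genes. At least 1.5-fold, 7 were lower (POLE2, GMNN, RPA3, RFC5, MSH6, MCM6 and FEN1; 14.3% of all genes) and 2 higher (CDC45 and CDC6; 10.5%). After scaling, on which this count also depends, the nm23-H2 array was the lowest of the 3 for 22 of 34 genes (64.7%), against 45.9% of all genes.

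Set against each other, nm23-H1 was above nm23-H2 for 25 of 34 genes, against 56.2% of all genes, and below it for 9 (39.2% of all genes), with a median of 0.28, against 0.08 for all genes. With the values as deposited the median was 0.062, against -0.07 for all genes, and 13 of 34 were below 0, against 55.2% of all genes. POLE2 and RPA3 were at least 2-fold higher with nm23-H1 (3.74% of all genes) and 0 were at least 2-fold lower (3.74%). The 8 genes at least 1.5-fold higher were POLE2, RPA3, GMNN, RFC5, MCM6, MCM2, POLD1 and UNG (16.2% of all genes), and the 3 lower were CDC6, MCM7 and MCM5 (10.5%). The 3 comparisons share arrays, so they are not independent of one another.

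**Figure D1:**
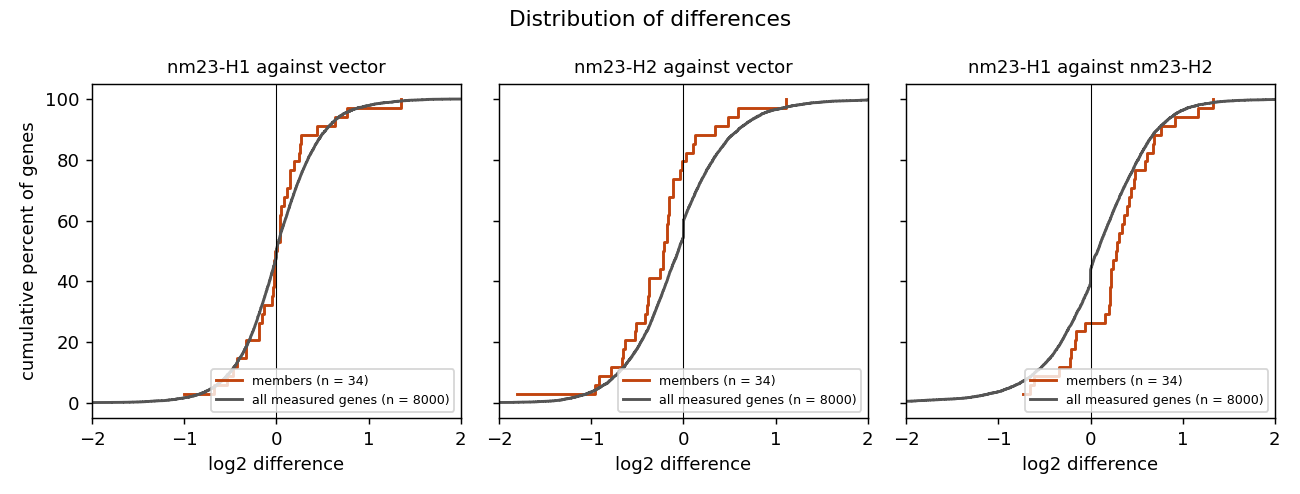
Cumulative percent of genes (vertical axis) by log2 difference (horizontal axis) in the 3 comparisons, for the 34 measured replication and repair genes and for all 8000 measured genes, with 1 array per group. The curve of the members runs close to that of all genes for nm23-H1 against vector (medians -0.01 and 0.00), to the left of it for nm23-H2 against vector (-0.22 and -0.06), and to the right for nm23-H1 against nm23-H2 (0.28 and 0.08).

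**Figure D2:**
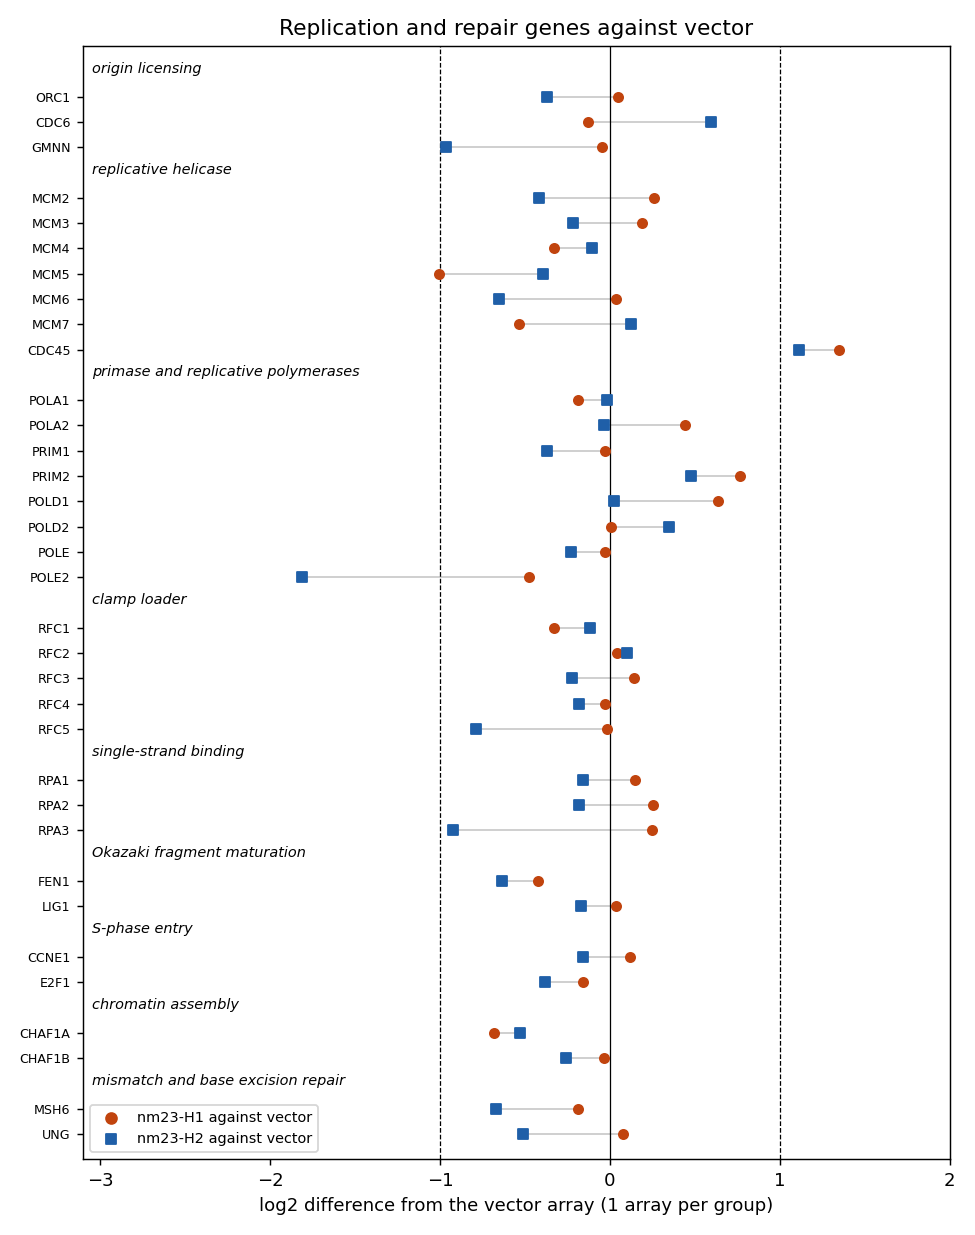
Log2 difference from the vector array (horizontal axis) of each measured gene, ordered by role, for nm23-H1 (circles) and nm23-H2 (squares), with dashed lines at 2-fold and 1 array per group. CDC45 lies beyond the upper line in both, POLE2 beyond the lower line with nm23-H2, and MCM5 at the lower line with nm23-H1.

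Among the licensing genes, geminin and CDC6 differed in opposite directions with nm23-H2. GMNN (GRCh38.p14, chr6:24774937-24786099), which blocks reloading of the MCM ring, had 159 units with nm23-H1, 84.4 with nm23-H2 and 165 with vector, so it was 1.95-fold lower with nm23-H2 and near the vector level with nm23-H1 (-0.05). CDC6 (chr17:40287879-40304657), the ATPase that helps load the ring, had 90.4 units with nm23-H1, 149.8 with nm23-H2 and 99.1 with vector, which was 1.51-fold higher with nm23-H2. A further probe set of CDC6 gave 93.9, 117 and 81.0 units, a difference of 0.54 with nm23-H2 and of 0.21 with nm23-H1, where the first had given -0.13. ORC1, the largest origin recognition subunit, had 96.6, 72.3 and 93.6 units on the nm23-H1, nm23-H2 and vector arrays. The other 6 licensing genes listed (ORC2 to ORC6 and CDT1) were all below 0 with nm23-H2 (median -0.37, range -0.87 to -0.09), against 54.5% of all genes. With nm23-H1, 5 of 6 were below 0 (median -0.20), against 47.8%, and 0 passed 2-fold in either comparison. With the values as deposited, 4 of 6 were below 0 with nm23-H2 and 4 with nm23-H1, against 30.9% and 36.2% of all genes.

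The 6 MCM subunits did not move as a unit. MCM5 was the lowest relative to vector with nm23-H1, at 422 units against 849 with vector, or 2.01-fold lower, and had 646 units with nm23-H2. Under 8 other settings its difference with nm23-H1 lay between -1.01 and -0.83, and it passed 2-fold in 2 of them. Its second probe set gave 164 units with nm23-H1, 250.5 with nm23-H2 and 293 with vector, a difference of -0.83 with nm23-H1. Both probe sets ranked the arrays the same way after scaling. With the values as deposited, both were lowest with nm23-H1 but ranked nm23-H2 and vector in opposite order. MCM7 had 502 units with nm23-H1, 792 with nm23-H2 and 727 with vector, or 1.45-fold lower with nm23-H1, but its second probe set gave -0.10. MCM2, MCM3 and MCM6 had the other order after scaling, with nm23-H1 highest and nm23-H2 lowest, but with the values as deposited MCM3 was lowest with vector. MCM6 had 368 units with nm23-H1, 228 with nm23-H2 and 359 with vector, or 1.57-fold lower with nm23-H2. The signals of MCM2 were 843, 528 and 703 units, and those of MCM3 were 502, 380.0 and 441, on the nm23-H1, nm23-H2 and vector arrays. MCM4 had 4 probe sets that disagreed: the brightest gave -0.33 with nm23-H1 and -0.11 with nm23-H2, while another gave -1.13 and -1.28, and no direction can be given for it.

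CDC45, which joins the MCM ring to form the active helicase, was the member most above vector on both arrays. It had 117 units with nm23-H1, 99.2 with nm23-H2 and 45.9 with vector, so that it was 2.55-fold higher with nm23-H1 and 2.16-fold higher with nm23-H2. Both transfectants with an nm23 gene lay above the vector cells, but the vector array is shared, and 1 probe set measured the gene. With a floor at the 70th percentile, above the vector signal, the differences were 0.82 and 0.58. Of the 11 other helicase and origin-firing genes measured, 10 were below 0 with nm23-H2 (median -0.63), against 54.5% of all genes, and 9 with nm23-H1 (median -0.17), against 47.8%. Of these, 4 with nm23-H2 and 2 with nm23-H1 are bounds, with a signal under the floor. With the values as deposited, 8 of the 10 still measured were below 0 with nm23-H2 (30.9% of all genes) and 6 with nm23-H1 (36.2%). GINS1, a subunit of the GINS complex, was the exception with nm23-H1, at 224 units, against 56.9 with nm23-H2 and 88.2 with vector (2.54-fold higher than vector with nm23-H1 and -0.63 with nm23-H2).

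**Figure D3:**
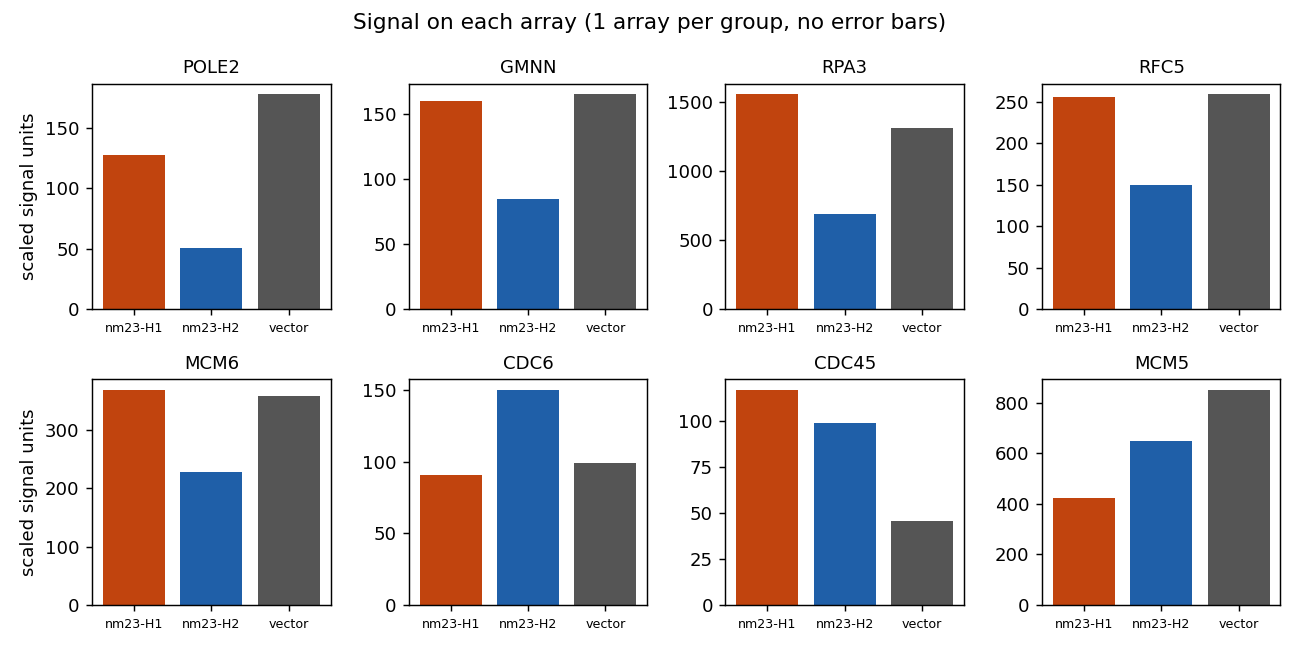
Scaled signal (vertical axis, from 0) of 8 genes on the nm23-H1, nm23-H2 and vector arrays, with 1 array per group and therefore no error bars. POLE2, GMNN, RPA3, RFC5 and MCM6 are lowest with nm23-H2, CDC6 is highest with nm23-H2, CDC45 is lowest with vector, and MCM5 is lowest with nm23-H1.

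POLE2, the accessory subunit of polymerase epsilon, had the widest spread of all members. It had 128 units with nm23-H1, 50.7 with nm23-H2 and 178 with vector, or 3.51-fold lower with nm23-H2 and 1.39-fold lower with nm23-H1. Under each of 8 other settings it stayed at least 2-fold lower with nm23-H2, with differences from -1.90 to -1.42. All of these settings read the same 1 probe set on the same arrays, so they do not repeat the measurement. POLE, the catalytic subunit of the same enzyme, had 95.2, 83.0 and 97.1 units on the nm23-H1, nm23-H2 and vector arrays, so the subunits of polymerase epsilon differed in how far they moved.

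The other polymerase genes were nearer the vector level with nm23-H2 and in part higher with nm23-H1. POLD1, the catalytic subunit of polymerase delta, had 190.1 units with nm23-H1, 125 with nm23-H2 and 122 with vector, or 1.55-fold higher with nm23-H1. POLD2, its second subunit, had 931, 1180 and 929 units in the same order of arrays and was 1.27-fold higher with nm23-H2. PRIM2, the large primase subunit, had 51.8 units with nm23-H1, 42.5 with nm23-H2 and 30.4 with vector, so it was 1.70-fold higher with nm23-H1, although its vector signal lay just above the floor. PRIM1, the catalytic primase subunit, had 114, 89.8 and 116 units. POLA2, the second subunit of polymerase alpha, had 173, 124 and 127 units, or 0.44 above vector with nm23-H1, and POLA1, the catalytic subunit, lay at the floor with 27.9, 31.9 and 32.2 units.

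RFC5 was the clamp loader gene that differed most. It had 256 units with nm23-H1, 149.9 with nm23-H2 and 259 with vector, or 1.73-fold lower with nm23-H2. Its further probe sets gave -0.35 and -0.92 with nm23-H2, the same direction. The other 4 loader genes stayed within 0.33 of vector on both arrays. RFC2 had 178, 185 and 173 units on the nm23-H1, nm23-H2 and vector arrays, RFC3 had 199, 155 and 181, RFC4 had 369.6, 333 and 377, and RFC1, the large subunit, had 41.8, 48.4 and 52.5. A less specific probe set of RFC1 gave -0.86 with nm23-H1.

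The clamp itself, PCNA, was not among the listed genes but is a textbook mark of replicating cells, and it did not follow the loader. PCNA had 606 units with nm23-H1, 313 with nm23-H2 and 202 with vector, or 2.997-fold and 1.55-fold above vector. MKI67, a marker of cycling cells, went the other way with nm23-H2, with 144 units with nm23-H1, 81.8 with nm23-H2 and 151 with vector. TOP2A, CDK1 and CCNB1 were at 0.05, -0.05 and 0.06 with nm23-H1, and at -0.48, -0.27 and -0.26 with nm23-H2, after scaling. With the values as deposited, CDK1 and CCNB1 were above vector with nm23-H2, while MKI67 and TOP2A stayed below it. The part of the cycling fraction in the lower signals with nm23-H2 was not tested.

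The 3 subunits of replication protein A, which coats single-stranded DNA, had the same order of arrays after scaling, with nm23-H1 highest and nm23-H2 lowest. With the values as deposited this order held for RPA3 only, and RPA1 and RPA2 were lowest with vector. RPA3 (chr7:7636518-7718607), the smallest subunit, had 1559 units with nm23-H1, 693 with nm23-H2 and 1313 with vector, so it was 1.89-fold lower than vector with nm23-H2 and 2.25-fold higher with nm23-H1 than with nm23-H2. RPA1 had 480.1, 389 and 433 units and RPA2 had 305, 225 and 255, which differed from vector by 0.25 or less on either array. A second probe set of RPA1 gave 0.15 with nm23-H2, above vector.

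FEN1, the flap endonuclease that trims Okazaki fragments, had 203 units with nm23-H1, 175 with nm23-H2 and 272 with vector, or 1.55-fold lower with nm23-H2 (-0.50 by its second probe set). LIG1, the ligase that seals them, had 116, 100.2 and 113 units. CHAF1A, the large subunit of the assembly factor that places histones on new DNA, had 58.4 units with nm23-H1, 65.0 with nm23-H2 and 93.6 with vector, which was 1.605-fold and 1.44-fold lower. All 3 of its probe sets were below vector with nm23-H2, at -0.53 each, but with nm23-H1 they ranged from -0.88 to -0.15. The -0.88 is a bound, because the nm23-H1 signal of that probe set was under the floor. CHAF1B, its partner, had 75.4, 64.5 and 77.2 units.

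The 2 listed S-phase entry genes that were measured were dim. CCNE1, encoding cyclin E1, had 57.9, 47.8 and 53.5 units on the nm23-H1, nm23-H2 and vector arrays, and E2F1 had 63.6, 54.5 and 71.1, with its second probe set below the floor on all 3. CDKN1A, the CDK inhibitor p21, was among the 14 other S-phase entry genes measured and had 75.1 units with nm23-H1, 290.3 with nm23-H2 and 114 with vector, or 2.55-fold higher with nm23-H2 and -0.60 with nm23-H1. CDC25A, the phosphatase that activates CDK2, had 42.5, 25.2 and 62.3 units and was at least 2.199-fold lower with nm23-H2, a bound because the signal was under the floor. In all, 10 of these 14 genes were below 0 with nm23-H2, against 54.5% of all genes, and 7 with nm23-H1, against 47.8%. With the values as deposited, the counts were 8 and 4 of 14, against 30.9% and 36.2% of all genes.

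Both listed repair genes measured were below 0 with nm23-H2 after scaling, against 54.5% of all genes. By the probe sets used they were within 0.19 of vector with nm23-H1. Of 15 other mismatch and base excision repair genes measured, 8 were below 0 with nm23-H2 and 6 above (median -0.01). MSH6, a mismatch recognition protein, had 138 units with nm23-H1, 98.8 with nm23-H2 and 157 with vector, or 1.59-fold lower with nm23-H2. A second probe set of MSH6 had 44.4, 21.6 and 62.3 units and gave -0.49 with nm23-H1 and -1.14 with nm23-H2, the last a bound. UNG, the glycosylase that removes uracil from DNA, had 205, 136 and 194 units, or 1.42-fold lower. BRCA1, of homologous recombination, was at 13.2, 8.72 and 3.43 units by the probe set used, all below the floor. Its less specific probe set gave 23.9, 55.7 and 31.4 units, so no direction is given.

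Of 129 other replication and repair genes listed from general knowledge, 99 were measured. With nm23-H1 against vector, 3 were at least 2-fold higher (2.16% of all genes) and 0 lower (1.71%), and with nm23-H2, 2 were higher (3.54%) and 2 lower (3.62%). The 3 were PCNA, GINS1 and FANCG, a Fanconi anaemia core complex gene with 402 units with nm23-H1, 277 with nm23-H2 and 134 with vector. FANCG and CDKN1A were the 2 higher with nm23-H2, and CDC25A and ASF1B, a histone chaperone (392, 190.1 and 397 units), were the 2 lower. With nm23-H2, 63 of the 99 were below 0 after scaling, against 54.5% of all genes. Their median of -0.24 was close to that of the members. Several of the 63 are bounds, among them 5 of homologous recombination and checkpoint and 4 of the helicase group. This count, like that of the members, depends on the scaling. Between nm23-H1 and nm23-H2, GINS1 and ASF1B were at least 2-fold higher with nm23-H1 and CDKN1A, XRCC6 and LIG3 lower, where XRCC6 and LIG3, genes of end joining and base excision repair, were named after their values were seen. Nucleotide excision repair genes were evenly split, with 6 of 12 below 0 on either array, against 47.8% of all genes with nm23-H1 and 54.5% with nm23-H2.

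The further probe sets of the members were compared with those used, on the same arrays. With nm23-H1 against vector, 11 of 15 further probe sets, above the floor in each array compared, had the direction of the one used, and 11 of 15 lay within 0.5 of it. With nm23-H2 against vector, the figures were 10 of 14 and 13 of 14. The single one farther off with nm23-H2 belonged to MCM4. No share over all genes was set beside these counts, and most members lay below 0 with nm23-H2 after scaling. The counts are therefore a description and not a check of the differences.

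**Figure D4:**
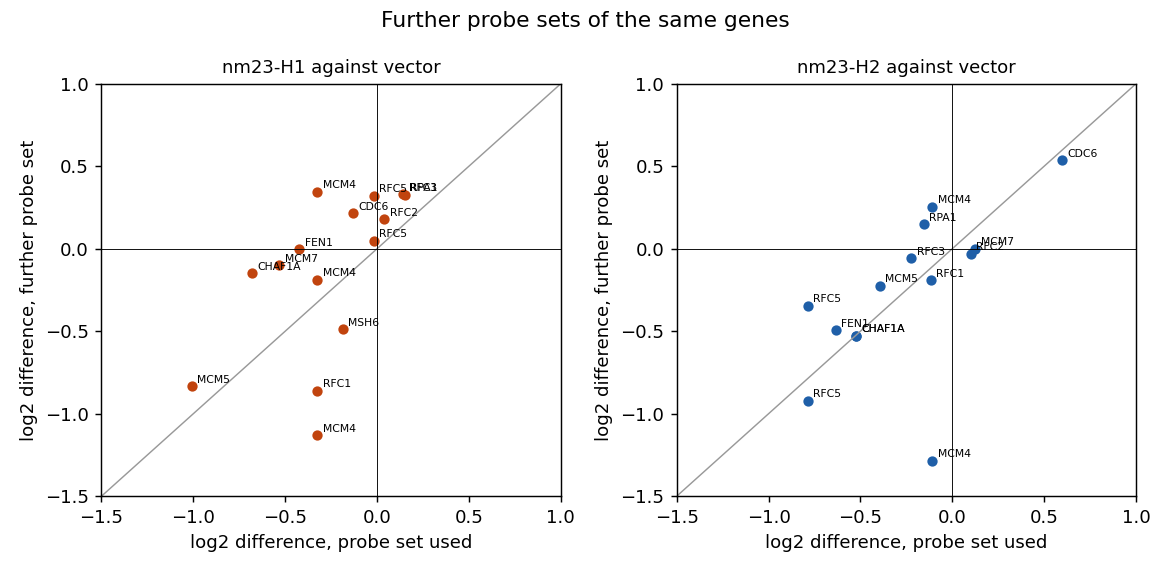
Log2 difference of each further probe set (vertical axis) against that of the probe set used for the same gene (horizontal axis), for nm23-H1 against vector (left, 15 points) and nm23-H2 against vector (right, 14 points), with the line of equality. Within 0.5 of the line lie 11 of 15 points and 13 of 14, and MCM4 has a point below -1 in both panels.

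Several of the larger differences were shared with neighbouring genes on the chromosome. For each gene the 25 measured genes on either side were taken from GRCh38.p14, and their median difference was computed. PCNA (GRCh38.p14, chr20:5114953-5126622) had neighbours with a median of 1.09 with nm23-H1 against vector, of which 29 of 50 were at least 2-fold higher and 0 lower. GINS1, on the same chromosome, had neighbours at 0.27 with 14 of 50 at least 2-fold higher, and those of FANCG on chromosome 9 were at 0.64 with nm23-H1 and 0.60 with nm23-H2. E2F1 (chr20:33675477-33686385), also on chromosome 20, had neighbours at 0.06 and was itself at -0.16.

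MCM5 (chr22:35400140-35455031) had neighbours at -0.50 with nm23-H1, 6 of 50 of them at least 2-fold lower, and at -0.05 with nm23-H2. XRCC6, farther along chromosome 22, had neighbours at -0.42 and was 1.77-fold lower with nm23-H1. CDC45 lies elsewhere on chromosome 22 (chr22:19479466-19520612), and its 41 neighbours had medians of 0.10 and 0.00 with nm23-H1 and nm23-H2, far below its own differences of 1.35 and 1.11. POLE2 (chr14:49643555-49688214) had neighbours at -0.32 with nm23-H1, near its own -0.47, and at -0.25 with nm23-H2, against its own -1.81. The neighbours of GMNN, RPA3, RFC5 and MCM6 had medians of -0.16, -0.09, -0.20 and -0.11 with nm23-H2. DNA copy number was not measured in these files, and its part in the shifts shared with neighbours was not tested. Without MCM5, POLE2 and E2F1, which lie in chromosome stretches shifted with nm23-H1, the members' median was 0.04 with nm23-H1 and -0.18 with nm23-H2. The stretch of chromosome 14 that holds POLE2 had medians of -0.30 with nm23-H1 and -0.31 with nm23-H2, against 0.00 and -0.06 for all genes. The limits of the stretches were set with earlier results of these data known, so their shifts are not separate support. E2F1 lies within a shifted stretch, but its nearest neighbours were at only 0.06 with nm23-H1.

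**Figure D5:**
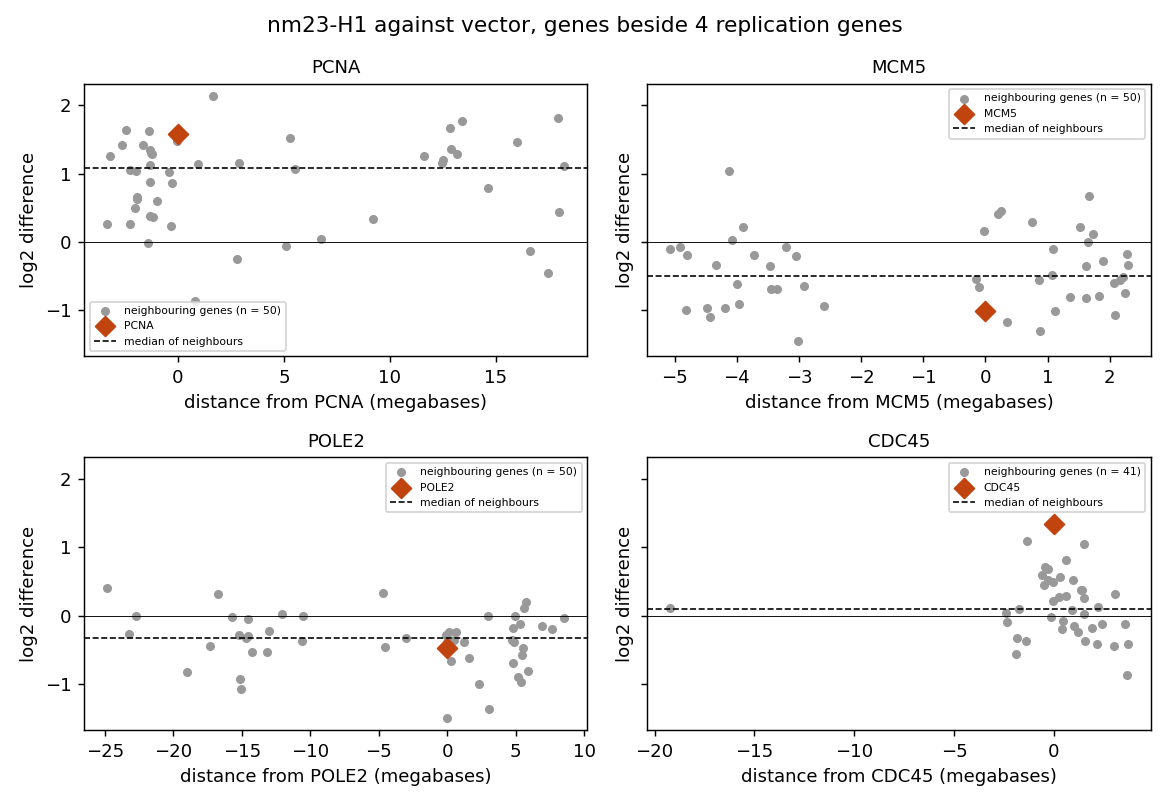
Log2 difference of nm23-H1 against vector (vertical axis) for PCNA, MCM5, POLE2 and CDC45 (diamonds) and their neighbouring measured genes (grey points), by distance from the gene in megabases (horizontal axis), with the neighbours' median dashed. The neighbours of PCNA lie mostly above 0 (median 1.09) and those of MCM5 mostly below (-0.50), whereas CDC45 at 1.35 stands above neighbours with a median of 0.10.

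Members with and without an E2F word were compared by their counts and medians, with no test. With nm23-H2 against vector, 13 of the 15 members with a word were below 0 (median -0.23), and so were 10 of the 15 measured members without one (median -0.16). Over all measured genes, 57.4% of those with a word and 53.7% of those without were below 0. With nm23-H1 against vector the members' medians were -0.03 with a word and 0.00 without, and between nm23-H1 and nm23-H2 they were 0.40 and 0.24. POLE2, with a difference of -1.81, and POLE, with -0.23, both have TTTGGCGC on the other strand shortly before or at the start site.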

How the data were processed

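Total RNA of 3 CAL 27 transfectants was hybridised to 1 array each. The authors deposited 1 intensity per probe set on a linear scale, which MAS5 had computed per the submitters' processing notes. Its version, scaling target and detection calls were not given in the sources used here. Each array was scaled by its trimmed mean (2nd to 98th percentile) to the geometric mean of the 3 (factors 1.03, 0.881 and 1.11 for nm23-H1, nm23-H2 and vector), signals under the pooled median of 28.3 were raised to it, and log2 was taken. Symbols came from GEO's platform annotation, updated through gene IDs. Of the 22283 probe sets, 19071 had 1 symbol, 1043 several and 2169 none, and only the first were used. Each gene was represented by 1 probe set, not ending in _x_at where possible, then the brightest.

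A gene past 2-fold was counted, beside the same share of all measured genes. No p-value was computed, and the number of arrays limits the precision. All members were named, and those past 2-fold or among the 3 largest differences either way were described in full. Of other pathway genes, those past 2-fold against vector and PCNA were named. Members and lists were chosen with earlier results of these data known. Alternatives were 3 other scalings, 2 other floors, 16 added with no floor, averaged probe sets, plain _at probe sets alone, 1.5-fold, a mean for the median, and leaving out members in shifted chromosome stretches. The steps were tested on simulated data. Python 3.11.15, numpy 2.4.6, pandas 2.3.3 and matplotlib 3.10.9 were used.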

Additional observations from a re-analysis of the deposited data

How the results depend on the processing

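The median of the members with nm23-H2 against vector was -0.22 and turned to 0.11 with the values as deposited, where all genes moved to 0.17. With the same values it was 0.10 where nm23-H1 was set against vector, and 0.062 between the nm23 arrays. The other settings moved these medians by 0.1 or less. The counts past 2-fold are small and moved easily. With nm23-H1, the 1 lower gene (MCM5) became 0 with the values as deposited, the common median, quantile normalization, 16 added, the mean of probe sets, plain _at probe sets, and without members in shifted stretches. The 1 higher gene (CDC45) became 0 with a 70th-percentile floor or with plain _at probe sets, and with nm23-H2 also with 16 added. With nm23-H2, the 1 lower gene became 3 with a common median and 0 without members in shifted stretches, since POLE2 was left out. Between nm23-H1 and nm23-H2, the 2 higher genes became 1 with the values as deposited, with a 70th-percentile floor and without members in shifted stretches. At 1.5-fold the counts were 3 higher and 2 lower with nm23-H1, 2 and 7 with nm23-H2, and 8 and 3 between them. For the 10 genes described in full, 222 of 225 differences under other settings lay within the probe error of the value given, and 0 of those past 2-fold changed sign. The 3 that moved farther were those of CDC45 (0.82 and 0.58) and POLE2 with nm23-H2 (-1.42), each with the floor at the 70th percentile, where a dim array is raised. Many of these settings could move a value little or not at all. A changed factor shifts the genes of a comparison alike, and a gene with 1 probe set keeps its value when probe sets are averaged. The count of 222 is therefore not a check of the differences. Of the 8000 measured genes, 173 passed 2-fold upward and 137 downward with nm23-H1 against vector, 283 and 290 with nm23-H2, and 299 and 299 between nm23-H1 and nm23-H2. These counts became 212 and 92, 630 and 108, and 172 and 494 with the values as deposited. With a common median, those with nm23-H2 became 242 and 383, and those between the nm23 arrays 405 and 252. With the floor at the 25th percentile they were 653 and 552, 621 and 979, and 1087 and 634, and with that at the 70th 72 and 59, 192 and 112, and 113 and 192, since the floor sets which genes are measured and how far dim ones can differ. Only plain _at probe sets left 4919 genes and 109 and 76, 163 and 168, and 178 and 169 calls. The counts of genes below 0 with the values as deposited were added after the data were seen. For the members with nm23-H1 against vector, 17 of 34 became 11. The cause of the other changes was not tested. No paired analysis was possible because each group has 1 array.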

Other observations

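After scaling, the order nm23-H1 highest and nm23-H2 lowest was shared by 12 of 34 members, namely ORC1, MCM2, MCM3, MCM6, POLA2, RFC3, RPA1, RPA2, RPA3, LIG1, CCNE1 and UNG, against 24.1% of all measured genes. This order depends on the scaling. With the values as deposited, the vector array and not nm23-H2 was lowest for MCM3, POLA2, RFC3, RPA1, RPA2, LIG1 and CCNE1. The nm23-H1 array was the highest of the 3 for 15 of 34 members, against 37.3% of all measured genes, and the vector array also for 15, against 33.8%. The nm23-H2 array was the highest for 4, against 28.9%. Of 8 chromatin assembly genes beyond the members, 7 were below 0 with nm23-H1 (47.8% of all genes), with a median of -0.16 and a lowest value of -0.54. The probe error SD of a single value was 0.32. With nm23-H2, 5 of 8 were below 0 (54.5% of all genes) with a median of -0.40, while SSRP1, a subunit of the histone chaperone FACT, was at 0.90. With the values as deposited, 5 of 8 were below 0 with nm23-H1 (36.2% of all genes) and 4 with nm23-H2 (30.9%). The 3 end-joining genes measured were all below 0 with nm23-H1 (47.8% of all genes), with a median of -0.44, and XRCC6 among them lies in the shifted stretch of chromosome 22.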
